A study of Mus musculus with 4 samples.

Results

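The 10 smooth muscle contractile genes described here were chosen by name, out of 19938 genes measured in subcutaneous adipose tissue (SAT). They comprise the thin filament genes *Acta2*, *Actg2*, *Tagln*, *Cnn1*, *Lmod1* and *Smtn*, the thick filament and kinase genes *Myh11* and *Mylk*, and *Synpo2* and *Des* of dense bodies and intermediate filaments. All 10 were measured, each by 1 probe set that names no other gene. *Des* and *Synpo2* are also strongly expressed in skeletal muscle, and *Lmod1*, *Mylk* and *Smtn* can be found there at a low level or as other isoforms. *Acta2*, *Actg2*, *Tagln*, *Cnn1* and *Myh11* are largely genes of smooth muscle and of related contractile cells in the adult.

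Smooth muscle cells wrap the arteries and larger veins of adipose tissue and set the diameter of these vessels. They contract when calcium and calmodulin activate myosin light chain kinase, and smooth muscle myosin then pulls on filaments of smooth muscle actin that are anchored in dense bodies. Most genes of this apparatus are switched on together by serum response factor (SRF) and its coactivators of the myocardin family, which act through a DNA motif called the CArG box. Some of the same proteins are also made elsewhere. Pericytes and myofibroblasts make smooth muscle actin, while desmin is a main filament protein of skeletal muscle.

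All mice were of the C57Bl6 strain, 16 weeks old and, by the methods of the study, male. They carried the NAPE PLD lox/lox allele, either alone (WT) or with AP2 Cre, a recombinase driven by the *Fabp4* promoter (cKO). This promoter is used to target adipocytes, and its activity in other cell types such as macrophages is known. For this mouse model the paper reported lower *Napepld* in the adipocyte fraction but not in the stromal vascular fraction. It found no genotype difference in peritoneal macrophages. In which cells of the arrayed samples Cre acted was not tested here. Each genotype received a control diet (CT, AIN93M) or a high-fat diet (HFD, D12492). RNA from 4 to 5 mice of a group was pooled onto 1 array, which left 4 arrays, named WT-CT and cKO-CT, then WT-HFD and cKO-HFD. Runs of 4 levels are given in this order. With 1 array per group there is no replicate error, no test and no p-value, and differences between mice are not seen. The values are log2 levels, and a difference between 2 arrays was called at 1.5-fold, or 0.585 on the log2 scale. The targeted gene *Napepld* stood at 8.31 on WT-CT and 7.78 on cKO-CT, and with HFD 8.01 in WT and 7.94 in cKO. All 3 differences to WT-CT were under 1.5-fold. In white adipose tissue of cKO mice the paper could not detect the protein by Western blot. It also reported lower *Napepld* mRNA in SAT of cKO mice on both diets. Which exons the array probes read was not examined here. As a mark of background, 95% of the olfactory receptor (*Olfr*) genes lay below a log2 level of 5.28 to 5.50, depending on the array. The adipocyte gene *Adipoq* was between 12.44 and 12.70 on the 4 arrays. None of 9 measured adipocyte markers differed by 1.5-fold in any comparison, beside 1.04% to 3.41% of all genes per direction and comparison. This count is near that share and does not measure the adipocyte content.

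Promoter windows from RefSeq (build GRCm38.p6), each holding 250 bases before and 50 bases from an annotated start, were matched by symbol for 7 of the 10 members. *Actg2*, *Myh11* and *Tagln* had no window, so the motif counts below do not cover them. *Acta2*, *Synpo2* and *Des* are shown because they differed most between the arrays. Capitals mark matches to a CArG box in which at most 1 of the 6 core letters is G or C, and matches to CAGCTG, a form of the E-box that myogenic factors bind. The windows are chr19:34255324-34255623 on the minus strand for *Acta2*, chr3:123236100-123236399 on the minus strand for *Synpo2* and chr1:75360042-75360341 on the plus strand for *Des*, all printed 5′ to 3′.
*Acta2*: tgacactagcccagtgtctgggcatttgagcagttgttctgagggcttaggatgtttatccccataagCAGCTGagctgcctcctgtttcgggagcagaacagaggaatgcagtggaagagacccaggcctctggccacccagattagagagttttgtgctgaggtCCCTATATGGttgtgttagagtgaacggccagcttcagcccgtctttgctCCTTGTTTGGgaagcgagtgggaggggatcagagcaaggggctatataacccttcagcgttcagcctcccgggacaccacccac
*Synpo2*: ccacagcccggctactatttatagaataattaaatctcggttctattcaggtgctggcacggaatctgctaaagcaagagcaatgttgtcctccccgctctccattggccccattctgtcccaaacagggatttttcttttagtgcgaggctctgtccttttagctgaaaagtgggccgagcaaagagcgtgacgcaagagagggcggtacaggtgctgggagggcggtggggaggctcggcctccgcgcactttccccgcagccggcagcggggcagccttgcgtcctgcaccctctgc
*Des*: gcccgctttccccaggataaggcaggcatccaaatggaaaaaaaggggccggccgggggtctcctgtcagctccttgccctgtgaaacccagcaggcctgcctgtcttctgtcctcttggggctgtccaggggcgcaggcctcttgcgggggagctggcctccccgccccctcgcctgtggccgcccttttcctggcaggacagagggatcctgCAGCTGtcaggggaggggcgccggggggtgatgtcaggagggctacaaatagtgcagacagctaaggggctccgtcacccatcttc

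The *Acta2* window held 2 such CArG-like matches, starting 84 and 34 bases before the annotated start, and 1 CAGCTG. The *Des* window held 1 CAGCTG, starting 36 bases before the start. The *Synpo2* window held neither. A perfect CArG box was found in 0 of the 7 member windows and in 1.63% of all 32851 windows. With 1 G or C allowed it was found in 1 of 7, against 9.98% of all windows. CAGCTG was found in 3 of 7 (*Acta2*, *Lmod1* and *Des*), against 16.3%. The motif CATTCC, the core of the MCAT element that TEAD factors bind, was found in 4 of 7 (*Acta2*, *Lmod1*, *Smtn* and *Mylk*), against 14.7%. All motifs were searched on both strands, and the relaxed CArG search includes the perfect boxes. These are matches of letters in short windows, and binding at them was not tested.

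*Acta2*, which encodes vascular smooth muscle actin, stood apart on the WT-CT array. Its log2 level (probe set 10467124) was 9.42 on WT-CT and 10.90 on cKO-CT, and with HFD 10.68 in WT and 10.82 in cKO. The other 3 arrays lay close together, and WT-CT was below all of them. The ratio was therefore 2.78-fold for cKO-CT and, with HFD, 2.40-fold for WT and 2.65-fold for cKO, each over the same WT-CT array. In cKO-CT over WT-CT, *Acta2* was at place 6 of 19938 genes ordered from the highest ratio. Between cKO-HFD and WT-HFD the log2 ratio was 0.14, and between cKO-HFD and cKO-CT it was -0.07. The genotype difference was thus smaller on HFD than on CT by 1.34 on the log2 scale, a value without an error.

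*Synpo2*, which encodes the actin-bundling protein myopodin of dense bodies and Z-discs, had a pattern of the same kind. Its log2 level was 7.28 on WT-CT and 8.38 on cKO-CT, and with HFD 8.97 in WT and 9.00 in cKO. WT-CT was again the lowest array, cKO-CT was intermediate, and the arrays of both HFD groups were nearly equal. The ratios to WT-CT were 2.15-fold for cKO-CT and, with HFD, 3.23-fold for WT and 3.30-fold for cKO. The 2 genotypes on HFD differed by 0.03 on the log2 scale, while cKO-HFD exceeded cKO-CT by 0.62. Although skeletal muscle also expresses *Synpo2*, its level did not go with the skeletal muscle markers, which are given below.

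*Des*, which encodes the intermediate filament protein desmin, followed another course. Its log2 level was 9.00 on WT-CT and 8.91 on cKO-CT, and with HFD 10.44 in WT and 7.50 in cKO. The arrays on CT were alike, WT-HFD was the highest and cKO-HFD the lowest. *Des* was 2.71-fold higher in WT-HFD than in WT-CT, but 2.66-fold lower in cKO-HFD than in cKO-CT. Between the genotypes it differed by -0.09 on CT, whereas on HFD it was 7.68-fold lower in cKO.

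**Figure D1:**
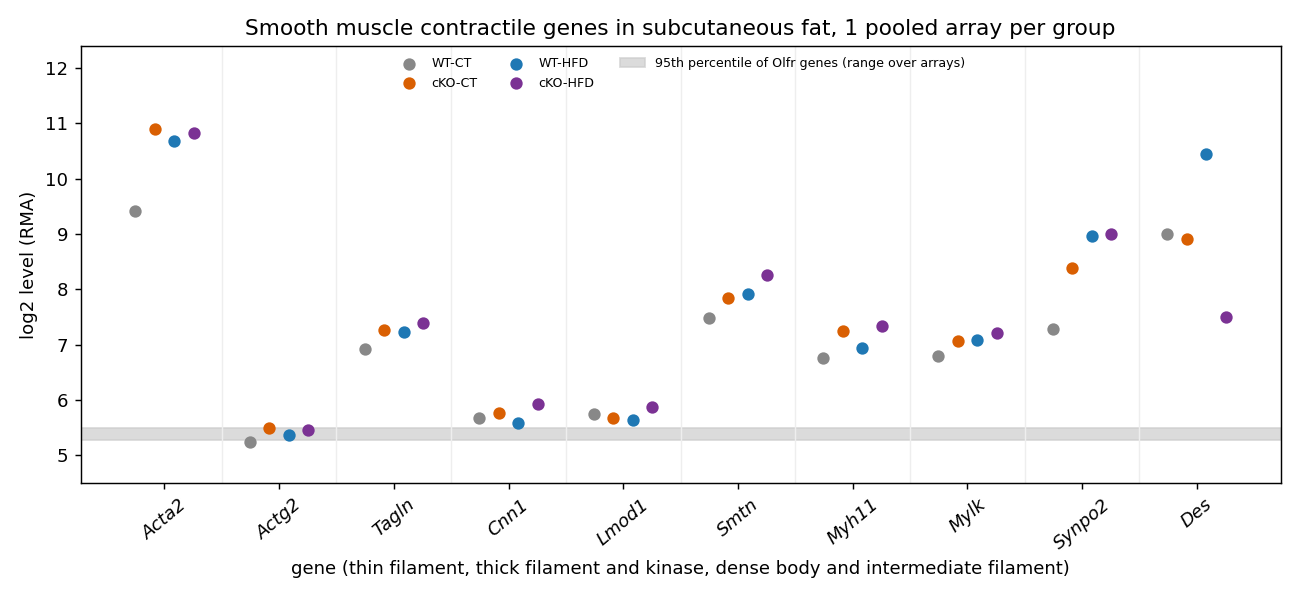
Log2 level (vertical axis) of the 10 smooth muscle contractile genes (horizontal axis), with 1 point per array and the arrays told apart by colour, the range of the 95th percentile of the *Olfr* genes being shaded. *Acta2* stood at 9.42 on WT-CT and at 10.68 to 10.90 on the other arrays, *Des* ranged from 7.50 to 10.44, and *Actg2* lay at the background. Levels of different genes come from different probes and are not comparable.

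*Myh11*, *Tagln*, *Smtn* and *Mylk* had ratios of smaller size than *Acta2*, *Synpo2* and *Des* on the arrays where those passed 1.5-fold against WT-CT. *Myh11*, the smooth muscle myosin heavy chain, had log2 levels with CT of 6.75 in WT and 7.24 in cKO, and with HFD of 6.94 in WT and 7.35 in cKO. Both cKO arrays were above both WT arrays, but only the ratio of cKO-HFD to WT-CT, 0.60 on the log2 scale, passed 1.5-fold, and after cyclic loess scaling it was 0.56 and did not. *Tagln*, which encodes the actin-binding protein SM22, was at 6.92, 7.26, 7.23 and 7.40 in the same order of arrays. No ratio of *Tagln* passed 1.5-fold, the largest being 0.48. *Smtn*, which encodes smoothelin of contractile cells, was at 7.49, 7.84, 7.92 and 8.26. It was 1.71-fold higher in cKO-HFD than in WT-CT, and its steps for genotype were nearly equal on the 2 diets, 0.35 on CT and 0.34 on HFD. *Mylk*, the myosin light chain kinase gene, was at 6.79, 7.07, 7.09 and 7.21, with all ratios below 1.5-fold.

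*Cnn1*, which encodes calponin 1, an inhibitor of the myosin ATPase, had log2 levels of 5.67, 5.76, 5.59 and 5.93 in that order. *Lmod1*, an actin filament nucleator, had 5.75, 5.67, 5.63 and 5.88. For both genes WT-HFD was the lowest and cKO-HFD the highest array, within a range of 0.34 for *Cnn1* and 0.25 for *Lmod1*. Their levels were above the *Olfr* background but near it. The robust SD of the ratios of genes at their level was 0.21 to 0.26, so this order of the arrays is uncertain. *Actg2*, the enteric smooth muscle actin gene, had 5.25, 5.50, 5.37 and 5.45 and was above the *Olfr* background on 1 array only, cKO-CT. Its ratios are therefore not resolved. In these bulk samples, fewer cells of a type and less RNA per cell cannot be told apart.

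Of the 10 members, 2 (*Acta2* and *Synpo2*) were higher by 1.5-fold in cKO-CT than in WT-CT and 0 lower, where 1.64% of all genes were higher and 1.52% lower. These 2 genes were known to be high there when the list was drawn up, so the count is a description. The median log2 ratio of the members was 0.31, that of all genes -0.0050. In WT-HFD over WT-CT, 3 members were higher (*Synpo2*, *Des* and *Acta2*) and 0 lower, beside 3.16% and 2.67% of all genes, with a median of 0.31. In cKO-HFD over WT-CT, 4 were higher (*Synpo2*, *Acta2*, *Smtn* and *Myh11*) and 1, *Des*, was lower, beside 3.36% and 3.41%, with a median of 0.45. Between the genotypes on HFD, 0 members were higher and *Des* alone was lower, beside 1.04% and 2.11%, with a median of 0.15. In cKO-HFD over cKO-CT, *Synpo2* was higher and *Des* lower, beside 1.82% and 2.17%, with a median of 0.14. The median ratio of all genes lay between -0.0050 and 0.0270 in these comparisons.

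The first 3 of these comparisons share the WT-CT array. WT-CT was the lowest array for 7 of the 10 members and for 28.3% of all genes, and cKO-HFD was the highest for 7 members and for 30.0% of all genes. The first 7 include *Actg2* and the second 7 include *Cnn1* and *Lmod1*, all at or near background. Without *Acta2*, *Synpo2* and *Des*, 0 of the other 7 members passed 1.5-fold in cKO-CT or WT-HFD over WT-CT, and 2 were higher in cKO-HFD. Of all genes, 1.64%, 3.16% and 3.36% were higher in these comparisons, and 1.52%, 2.67% and 3.41% lower. With such shares, a count of 0 in 7 genes is not a result about them. The median log2 ratios of these 7 members were 0.28, 0.19 and 0.43. This split was made after the values were seen.

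**Figure D2:**
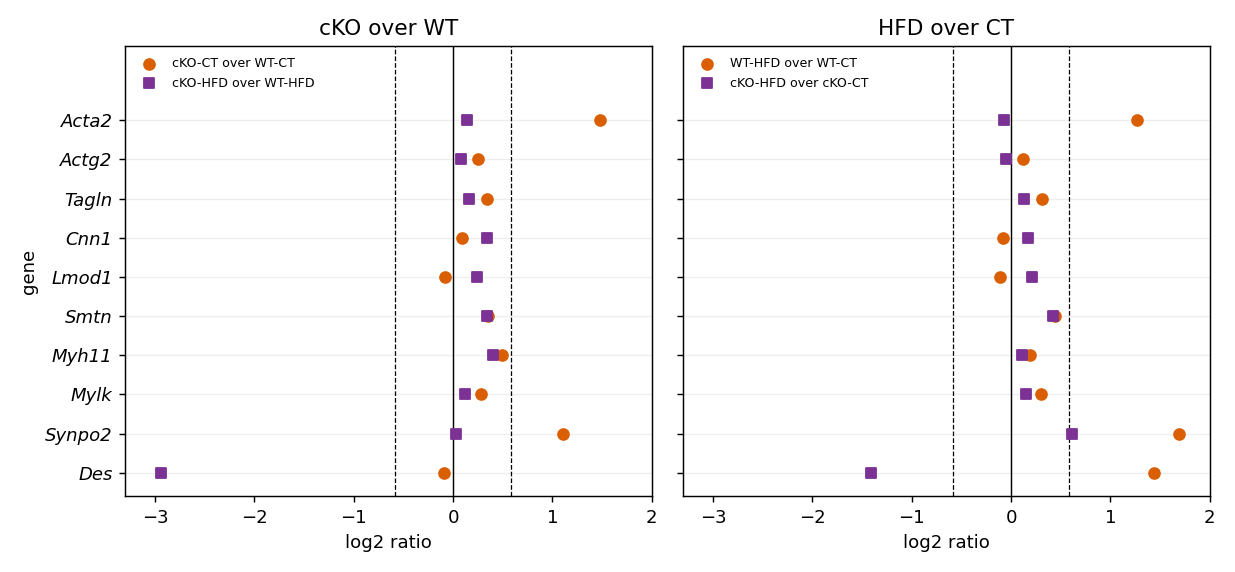
Log2 ratio (horizontal axis) of each member (vertical axis) for cKO over WT on each diet (left) and for HFD over CT in each genotype (right), 1 point per gene and comparison, with 1.5-fold dashed. *Acta2* and *Synpo2* lie at 1.48 and 1.11 for cKO over WT on CT and at 0.14 and 0.03 on HFD, and *Des* lies at 1.44 for HFD over CT in WT and at -1.41 in cKO.

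Skeletal muscle markers had, like *Des*, their highest median on WT-HFD and their lowest on cKO-HFD. The median log2 level of 36 skeletal muscle markers was 7.97 on WT-CT (5.20 to 11.87 over the genes), 8.03 on cKO-CT (4.72 to 11.68), 10.03 on WT-HFD (5.30 to 12.93) and 6.10 on cKO-HFD (4.74 to 10.26). Above the *Olfr* background were 33, 32, 35 and 29 of them. In cKO-CT over WT-CT 1 of the 36 (*Mylk4*, a muscle kinase gene) was higher and 6 were lower, with a median of -0.13. Among these 6 were *Mybpc1* (-1.67), *Mb* (-1.22), *Myh7* (-1.18), *Myh1* (-1.10), *Actn2* and *Myh2*, of which *Mb* and *Myh7* are genes of slow, oxidative fibres. For *Des* this ratio was -0.09, so it did not share the course of these 6 on CT. In WT-HFD over WT-CT 26 of the 36 were higher, and in cKO-HFD over WT-HFD 33 were lower, with median log2 ratios of 1.62 and -3.67. The genes with the largest ratios were *Mylk4*, *Mybpc2*, *Pygm* and *Myh4*, of which *Mylk4* was lower by 5.03 in cKO-HFD than in WT-HFD, with its level on cKO-HFD under background. *Acta1*, the skeletal muscle actin gene, had levels of 11.17, 11.50, 12.85 and 9.55, and thus went with *Des* and not with *Acta2*.

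Likeness was measured as the Euclidean distance between the 3 log2 ratios to WT-CT of a gene and those of another gene or of a list median, over the 4 arrays. *Des* lay 0.42 from the median of the skeletal muscle markers, the nearest of the 14 lists used here. *Synpo2* lay 3.80 from it, *Acta2* 3.67 and the other 7 members 2.59 to 2.94. On this measure *Des* was nearer to the skeletal muscle median than any other member was.

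Of the other genes of the contractile apparatus, *Tpm1* and *Tpm2*, the tropomyosins that smooth and skeletal muscle share, had the course of *Des*. *Tpm1* was at 9.61 on WT-CT and 9.89 on cKO-CT, and with HFD 11.47 in WT and 8.43 in cKO. *Tpm2* was at 8.96, 8.76, 10.68 and 7.44. *Nexn*, an actin-binding gene of muscle Z-discs, likewise had its maximum on WT-HFD (6.69) and its minimum on cKO-HFD (5.15). The latter level was under the *Olfr* background of that array (5.50), so the size of its drop is not resolved. For these 3 genes, as for *Des*, the HFD arrays of the 2 genotypes were far apart and the CT arrays close together.

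**Figure D3:**
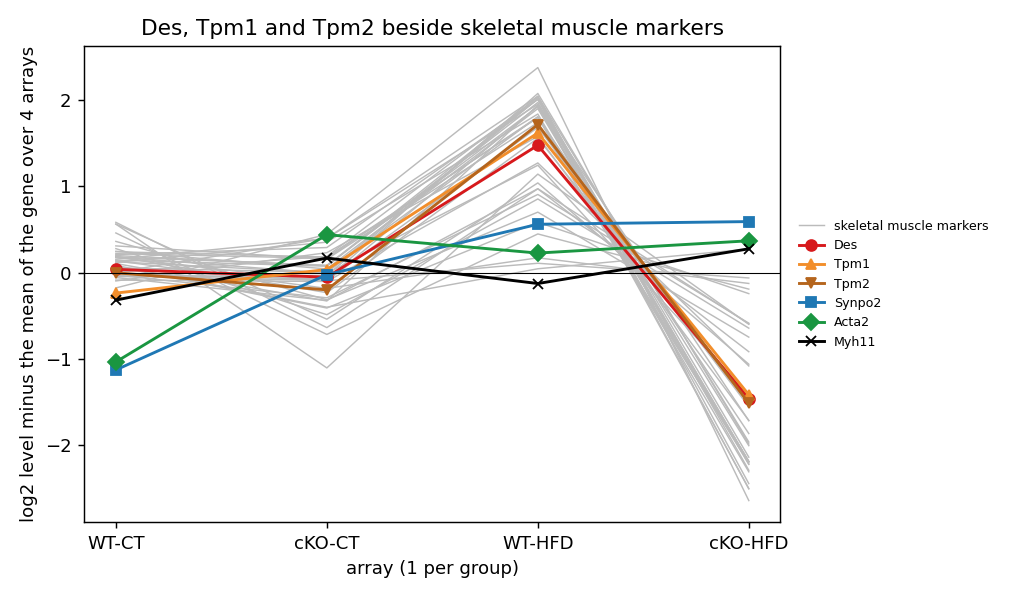
Log2 level minus the mean of the gene over the 4 arrays (vertical axis) on each array (horizontal axis), for 36 skeletal muscle markers in grey and 6 named genes in colour. *Des*, *Tpm1* and *Tpm2* run with the grey lines, while *Acta2* and *Synpo2* are lowest on WT-CT and do not drop on cKO-HFD.

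The list of contractile genes outside the members, most of which bind or link actin in many cell types, includes these 3. Of 17 measured, 6 were higher in cKO-CT than in WT-CT and 0 lower, with a median log2 ratio of 0.48. Of all genes, 1.04% to 3.41% passed per direction and comparison. In WT-HFD over WT-CT 7 were higher, *Tpm1*, *Tpm2* and *Nexn* among them, and 0 lower (median 0.53), and in cKO-HFD over WT-CT 8 were higher and 3 lower (median 0.53), the lower ones being these same 3. In cKO-HFD over WT-HFD and over cKO-CT, 0 were higher, and *Tpm1*, *Tpm2* and *Nexn* were again the lower genes (median 0.09 in both). *Palld*, which encodes the actin cross-linker palladin, had levels of 6.10, 6.99, 7.43 and 7.44, so that WT-CT was the lowest array and the HFD arrays were equal, as for *Synpo2*. *Myl9*, the regulatory light chain that myosin light chain kinase phosphorylates, had log2 levels of 8.75 on cKO-CT, and with HFD 8.47 in WT and 8.91 in cKO, all above that on WT-CT. It was 1.5-fold higher in cKO-CT (0.75) and cKO-HFD (0.91) than in WT-CT but not in WT-HFD (0.47). The actin genes are nearly identical in coding sequence, and since probe sequences were not examined here, binding of one actin RNA to the probes of another was not tested. The cytoplasmic actin gene *Actb* had ratios of 0.46, 0.51 and 0.59 to WT-CT, the last of which passed 1.5-fold.

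Genes that control contraction passed 1.5-fold in few cases, beside 1.04% to 3.41% of all genes per direction and comparison. With such shares, a count of 0 in lists this small is not a result about these genes. Of 10 measured genes of myosin phosphatase and RhoA signalling, 0 passed 1.5-fold in cKO-CT, WT-HFD or cKO-HFD over WT-CT, with ratios between -0.21 and 0.56. *Ppp1r12b*, a myosin phosphatase subunit that striated muscle also makes, was lower in cKO-HFD than in WT-HFD by 0.59, as the mean of 7 probe sets. Of 8 measured genes of calcium handling and ion channels, 0 passed in any comparison, and only *Cacna1c*, the L-type calcium channel gene, was above the *Olfr* background. *Kcnmb1*, a potassium channel subunit of smooth muscle, was below it on all 4 arrays. *Cacna1c* had levels of 6.05, 6.13, 6.12 and 6.29, with ratios to WT-CT of 0.08, 0.07 and 0.24. For the other 7 genes, at or under background, differences were not detectable.

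Among 8 measured receptors that act on contraction, *Oxtr*, the oxytocin receptor gene, had levels with CT of 6.33 in WT and 7.23 in cKO, and with HFD of 7.91 in WT and 9.11 in cKO. It was higher in cKO than in WT on both diets and higher on HFD than on CT in both genotypes, each by over 1.5-fold. *Ednrb*, an endothelin receptor gene, was higher in cKO-CT than in WT-CT by 0.64. *Gucy1a1*, a subunit of the nitric oxide receptor guanylate cyclase that relaxes smooth muscle, was higher in cKO-HFD than in WT-CT by 0.73 and than in WT-HFD by 0.68.

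Of the transcription factors of the smooth muscle programme, *Srf* had levels with CT of 6.98 in WT and 7.53 in cKO, and with HFD of 7.67 in WT and 7.47 in cKO. WT-CT was the lowest, and the ratio passed 1.5-fold in WT-HFD (0.69) but not in cKO-CT (0.55) or cKO-HFD (0.48). The SRF coactivator genes *Mrtfa* and *Mrtfb* had ratios of 0.44 and 0.18 in cKO-CT. *Myocd*, the coactivator gene of smooth and heart muscle, did not exceed the *Olfr* background on any array. Of the 12 factors, 0 passed between the genotypes on CT, where 1.64% of all genes were higher and 1.52% lower. In WT-HFD over WT-CT *Mef2c* (0.86) and *Srf* were higher and *Gata6* (-0.68) was lower, and in cKO-HFD over WT-CT 0 passed. *Mef2c* is also a skeletal muscle gene and was lower in cKO-HFD than in WT-HFD by 0.89. *Fhl2* was higher in cKO-HFD than in cKO-CT by 0.63.

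Genes that SRF or YAP can induce outside the contractile apparatus were divided. Of 10 measured, *Ccn1*, *Thbs1* and *Ccn2* were higher in cKO-CT and in WT-HFD than in WT-CT, and these with *Lats2* in cKO-HFD, while 0 were lower. *Ccn1*, which encodes the matricellular protein CYR61, was at 6.83 on WT-CT and 8.37 on cKO-CT, and with HFD 8.01 in WT and 8.26 in cKO. This is the order of the arrays seen for *Acta2*. The immediate early genes *Egr1*, *Fos*, *Fosb* and *Junb* had ratios between -0.26 and 0.27 to WT-CT, all under 1.5-fold.

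Among 5355 genes whose log2 levels averaged 7 or more, *Ccn1* was the nearest to *Acta2*, at a distance of 0.10, and the next, *Cavin3* of caveolae, was at 0.45. The nearest to *Synpo2* were the amino acid transporter gene *Slc7a8* at 0.16 and *Lbp*, the lipopolysaccharide-binding protein gene, at 0.26. The nearest to *Des* was *Pfkm*, the muscle phosphofructokinase gene, at 0.13. These searches around single members were added after the values were seen. Around the median ratios of the 10 members, the 8 nearest genes were *Palmd*, *Wnk1*, *Itm2c*, *Tbl1x*, *Wdr1*, *Wsb2*, *Hspa12a* and *Tmem104*, at 0.027 to 0.047.

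Markers of cells that neighbour or share the contractile genes were measured beside the members. Of 11 pericyte markers, 2 (*Anpep* and *Pdgfrb*) were higher in cKO-CT, 1 (*Anpep*) in WT-HFD and 4 (*Pdgfrb*, *Kcnj8*, *Rgs5* and *Mcam*) in cKO-HFD over WT-CT, with medians of 0.38, 0.29 and 0.42. *Tagln* lay 0.072 and *Mylk* 0.099 from the pericyte medians, their nearest list. Of 12 endothelial markers, 0 passed in cKO-CT or WT-HFD and 6 did in cKO-HFD, all over WT-CT, with medians of 0.36, 0.25 and 0.63. A count of 0 is near the share of all genes. In cKO-CT all 12 ratios were above 0, at 0.24 to 0.56. *Cdh5*, the endothelial cadherin gene, had the largest ratio (0.94), followed by *Esam*, *Eng* and *Pecam1*. *Myh11* lay 0.15 and *Smtn* 0.24 from these, their nearest list. Of 12 fibroblast and myofibroblast markers, 4 (*Fn1*, *Postn*, *Tnc* and *Fap*) were higher in cKO-CT, while WT-HFD had 8 and cKO-HFD had 6, with medians of 0.44, 0.63 and 0.55. *Acta2* and *Synpo2* were nearest to this list, but still 1.486 and 1.716 away. They were almost as near to the macrophage markers, at 1.490 and 1.753, so these lists are not told apart. *Actg2* was nearest to the transcription factors (0.08), *Cnn1* to the other SRF and YAP targets (0.10) and *Lmod1* to the cardiac markers (0.16). The ratios of *Actg2* are not resolved, so its distance cannot be read. Those of *Cnn1* and *Lmod1* rest on small ratios near background. Next lists could be close. *Mylk* lay 0.17 from the contractile receptors, and *Smtn* lay 0.29 from the contractile genes outside the members. The nearest list therefore does not name the cells that made the RNA. The part of these cells in the levels of the members was not tested.

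Other cell types were checked in the same way, beside 1.04% to 3.41% of all genes per direction and comparison. Of 10 keratinocyte and myoepithelial markers, 2 to 4 lay above the *Olfr* background on an array, and *Krt5* and *Epcam* on none. Over WT-CT the list had a median of -0.20 for cKO-CT and, with HFD, 0.01 for WT and 0.12 for cKO. *Dsp*, the desmoplakin gene, was above background on 1 array, cKO-HFD, and was higher there than on WT-CT (0.83), WT-HFD (0.59) and cKO-CT (1.09). *Krt10* was higher in cKO-HFD than in cKO-CT (0.68), and the list had no other call. The 7 cardiac markers had medians of -0.21, -0.03 and 0.09 over WT-CT and did not run one way. *Actc1*, the cardiac actin gene, had levels of 7.20, 6.53, 7.06 and 6.56, and was lower in cKO-CT and cKO-HFD than in WT-CT. *Myl4*, an atrial myosin light chain gene, had 8.26, 8.48, 9.01 and 9.48, and was higher in WT-HFD (0.75) and cKO-HFD (1.22) than in WT-CT, and also passed 1.5-fold in cKO-HFD over cKO-CT. *Nppa* was lowest on WT-CT (5.24) with no ratio past 1.5-fold. *Myh6* was lower in cKO-CT than in WT-CT but under background on all 4 arrays. Macrophage markers, a cell type without smooth muscle myosin, passed 1.5-fold upward for 5 of 10 in cKO-CT (*Laptm5*, *Cd68*, *Tyrobp*, *C1qc* and *Adgre1*), while WT-HFD had 7 and cKO-HFD had 3 (*Cd68*, *Laptm5* and *Tyrobp*), with medians of 0.57, 0.77 and 0.33. The largest ratio was that of *Cd68* in WT-HFD over WT-CT (1.32). In cKO-HFD over WT-HFD, *C1qc* and *Adgre1* were lower.

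**Figure D4:**
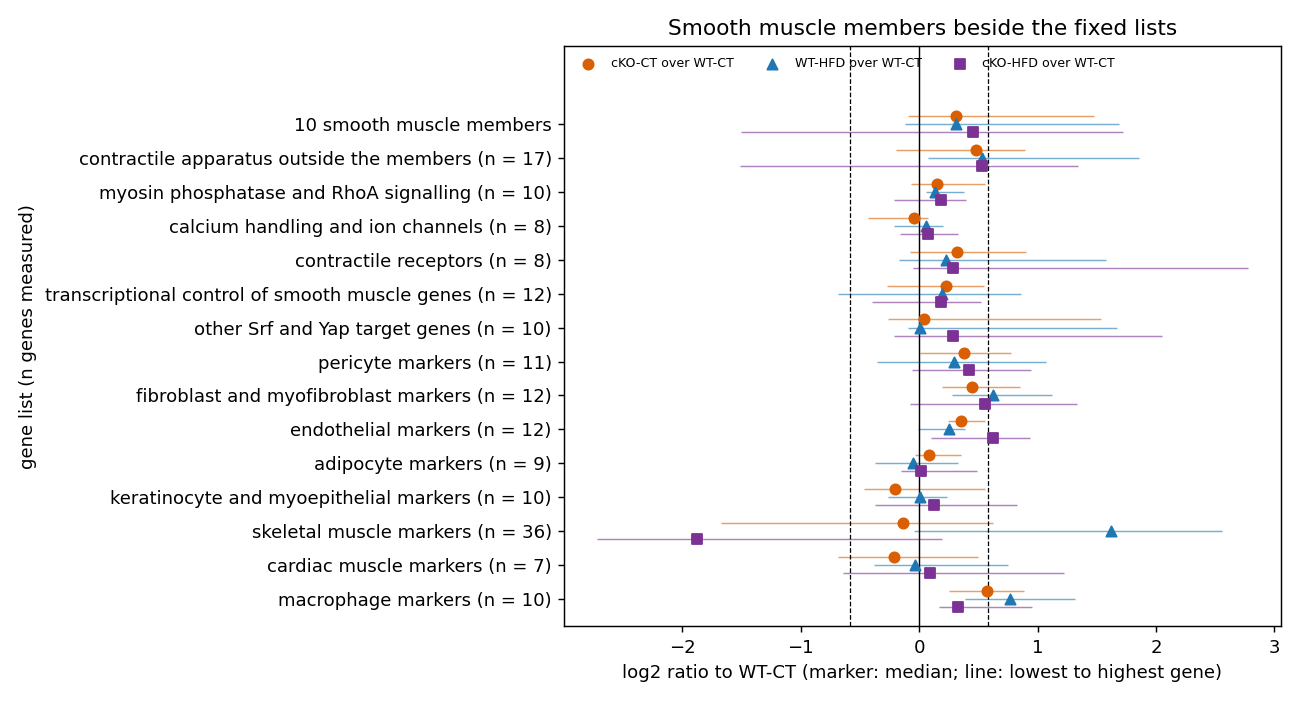
Log2 ratio to WT-CT (horizontal axis) of the 10 members and of 14 gene lists (vertical axis) for the other 3 arrays, with the median as a marker, the lowest to highest gene as a line, and 1.5-fold dashed. The medians of the members, 0.31, 0.31 and 0.45, lie near those of the pericyte markers, 0.38, 0.29 and 0.42, while the skeletal muscle medians lie at -0.13, 1.62 and -1.87.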

How the data were processed

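RNA of SAT was pooled within each group by the authors and hybridized to Affymetrix MoGene 1.0 ST arrays. For each probe set the authors deposited a log2 level, made by RMA (RMA-Sketch in the APT suite by the methods, Affymetrix Expression Console by the submitters' processing notes). The genome build is not given in the sources used here. Precision is limited by the number of arrays. Detection P values were not used here.

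Of 35556 probe sets, 21789 had 1 gene name in the platform annotation, 1621 several and 12146 none. Probe sets with 1 name were averaged per gene, and log2 ratios were taken between arrays without further scaling or test. A gene was counted at 1.5-fold, the size used in the study. Of 181 list symbols, 172 were measured, 6 through an updated symbol. The members, lists and motifs were chosen with earlier results of these data known. Named genes are the members, *Napepld*, actin genes, up to 4 genes per list with the largest ratio among those above background, those that make up a count of 5 or fewer, and the nearest genes. Some genes that the rule allows are not printed. *Myl9*, *Mrtfa*, *Mrtfb*, *Myocd*, *Kcnmb1*, *Krt5*, *Epcam*, *Egr1*, *Junb* and the lower skeletal muscle markers on CT were named outside this rule, after their values were seen.

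Alternatives were the highest probe set, probe sets one by one, cyclic loess (span 0.7, 3 iterations), centring of each array on its median, a 2-fold size, filters on low levels, and leaving out members that skeletal muscle expresses. The code steps were run on simulated data with planted differences and less noise than the ratios of these arrays. That run checks the code and gives no rate of false calls here. Python 3.11.15, numpy 2.4.6, pandas 2.3.3, matplotlib 3.10.9, R 4.3.3 and limma 3.58.1 were used.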

Additional observations from a re-analysis of the deposited data

Results flagged for a closer look

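The diet difference of *Des* had opposite directions in the 2 genotypes, and each was over 1.5-fold. On the log2 scale HFD minus CT was 1.44 in WT, and -1.41 in cKO. With 1 array per group, the difference between the genotypes was not tested. The median of the 36 skeletal muscle markers was 1.62 and -1.89 in the same comparisons.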

How the results depend on the processing

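All 235 recomputed log2 ratios of single members kept their value within the robust SD of the ratios of genes at their level (5 comparisons, under the highest probe set, centring, cyclic loess and both filters). The highest probe set and the filters could not change a ratio. Centring shifts all genes of a comparison alike, so only the 50 values under cyclic loess could move gene by gene. In cKO-HFD over WT-CT, cyclic loess took *Myh11* from 0.60 to 0.56, under 1.5-fold, which left 3 members higher. At 2-fold, 2 members were higher in cKO-HFD over WT-CT and 0 in cKO-HFD over cKO-CT. When 7 members whose log2 level averaged 7 or more were kept, the median over WT-CT was 0.44 for WT-HFD and 0.60 for cKO-HFD. Without *Des* and *Synpo2*, 1 member was higher in cKO-CT and 1 in WT-HFD over WT-CT, 0 in cKO-HFD over cKO-CT, and 0 were lower in cKO-HFD over WT-CT, WT-HFD or cKO-CT. Without *Lmod1*, *Mylk* and *Smtn* as well, these counts were 1, 1, 0 and 0, with 2 higher in cKO-HFD over WT-CT and a median of 0.19 in WT-HFD over WT-CT. These shifts follow from the genes left out or the larger size. The other medians moved by under 0.1. Each member has 1 probe set, so the choice among probe sets changed nothing. No paired analysis was possible because each group has 1 array. The low signals of *Actg2*, *Cnn1* and *Lmod1* over background limit their ratios.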
